A study of Homo sapiens with 28 samples.

Results

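The genes described here encode 3 ERBB receptors (EGFR, ERBB2 and ERBB3), the receptor inhibitor ERRFI1, the ERK phosphatases DUSP4, DUSP5 and DUSP6, and the Sprouty proteins SPRY1, SPRY2 and SPRY4. They were taken by symbol, and all 10 were among the 61815 human genes measured. LNCaP is an androgen-responsive human prostate cancer line, labelled wild type, and every group was first deprived of androgen for 72 h in medium with charcoal-stripped serum. In the first experiment, cells were treated for 24 h with 0.1% DMSO (vehicle), 1 µM Senexin B, 0.1 nM R1881 or both agents (n = 3 each). The Senexin B dose is the one in the labels, and the text of the study gives another, so the dose is in doubt. The other experiment lasted 72 h and used 0.1% DMSO, 500 nM SNX631, 1 nM R1881 or both agents (n = 4 each). R1881 is a synthetic androgen, and Senexin B and SNX631 inhibit the Mediator kinases CDK8 and CDK19. The inhibitor, the R1881 dose and the time all differed between the experiments and cannot be told apart, so values from the 2 experiments stand side by side and no difference between them was tested. All libraries are from 1 cell line, which limits it as a model of prostate tissue.

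ERBB receptors are membrane tyrosine kinases that pair on binding a ligand and switch on RAS, RAF, MEK and ERK. ERK then drives transcription of its own restraints: DUSP phosphatases remove phosphate from ERK, Sprouty proteins act upstream on the route to RAS and RAF, and ERRFI1 binds the receptor kinase domain. ERBB2 has no known ligand and ERBB3 has a weak kinase domain, and the pair signals strongly in combination.

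Libraries held 9846481 to 33809270 counts. The deepest was vehicle 24 h replicate 3, and no other library exceeded 15248316. In bulk RNA, fewer cells of a type and less RNA per cell cannot be told apart. All 6 luminal prostate markers checked were above 1 CPM (counts scaled to library size) on average in every group, and the 3 basal markers were at or near 0. The luminal markers summed to 3747 to 3785 CPM in vehicle at 24 h, and to 3244 to 3297 with Senexin B. R1881 gave 3264 to 3294 CPM, and both agents 2901 to 2977. At 72 h their sum was 3212 to 3219 CPM in vehicle and 2833 to 2925 with SNX631. It was 3371 to 3416 CPM with R1881, and 3010 to 3042 with both. The summed level of 4 fibroblast markers, led by COL1A1, was lower in treated groups, as ERBB2 was. It lay between 23.7 and 25.3 CPM in vehicle, 11.7 and 12.8 with Senexin B, 15.2 and 16.6 with R1881, and 8.12 and 9.91 with both at 24 h, and between 29.7 and 33.3, 19.2 and 22.7, 17.9 and 25.5, and 11.4 and 13.8 in the same order, with SNX631, at 72 h. The summed level of 3 endothelial markers was higher with R1881, at 0.99 to 1.19 CPM in vehicle and 2.48 to 2.94 with R1881 at 24 h, and at 0.61 to 1.31 and 3.30 to 4.56 at 72 h. The 3 leukocyte markers summed to at most 1.38 CPM. COL1A1 held 77 to 828 counts in a library, PDGFRB 7 to 32 and VWF, an endothelial marker, 4 to 55. COL1A2, DCN, PECAM1, CDH5, PTPRC and CD3E held at most 3 counts in a library. The fibroblast sum thus mainly follows COL1A1, and the endothelial sum VWF. The part of these markers in the results was not tested. All 10 genes passed the filter on low counts in both experiments. A gene was called where edgeR's adjusted p (FDR) was under 0.01 and the fold change over 1.5.

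Promoter windows (RefSeq, GRCh38.p14, 250 bases before to 50 after a start site, read along the gene's strand) are shown for genes that R1881 moved the same way in both experiments and that had a window. Capitals mark matches on either strand to the androgen receptor half-site AGAACA, the AP-1 site TGACTCA, the ETS core CCGGAA, the GC box GGGCGG or the CRE TGACGTCA. The pair of EGFR windows belongs to different start sites.
EGFR, chr7:55018767-55019066, plus strand: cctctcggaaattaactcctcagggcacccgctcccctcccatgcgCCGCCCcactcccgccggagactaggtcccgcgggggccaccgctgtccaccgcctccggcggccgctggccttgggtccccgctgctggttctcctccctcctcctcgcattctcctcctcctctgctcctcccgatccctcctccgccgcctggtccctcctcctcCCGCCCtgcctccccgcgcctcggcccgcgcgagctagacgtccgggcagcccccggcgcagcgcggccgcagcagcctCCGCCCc
EGFR, chr7:55109589-55109888, plus strand: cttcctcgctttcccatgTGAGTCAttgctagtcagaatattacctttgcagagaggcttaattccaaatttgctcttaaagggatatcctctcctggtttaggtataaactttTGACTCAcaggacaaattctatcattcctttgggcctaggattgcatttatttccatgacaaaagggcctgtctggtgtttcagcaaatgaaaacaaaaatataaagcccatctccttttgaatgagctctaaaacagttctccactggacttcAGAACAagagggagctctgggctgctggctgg
ERBB2, chr17:39687844-39688143, plus strand: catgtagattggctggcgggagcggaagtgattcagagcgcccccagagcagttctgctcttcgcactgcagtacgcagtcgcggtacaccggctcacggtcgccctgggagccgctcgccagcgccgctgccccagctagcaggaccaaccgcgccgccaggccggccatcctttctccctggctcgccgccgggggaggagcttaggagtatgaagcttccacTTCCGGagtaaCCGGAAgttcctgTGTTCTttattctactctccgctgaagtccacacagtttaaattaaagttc
ERRFI1, chr1:8026260-8026559, minus strand: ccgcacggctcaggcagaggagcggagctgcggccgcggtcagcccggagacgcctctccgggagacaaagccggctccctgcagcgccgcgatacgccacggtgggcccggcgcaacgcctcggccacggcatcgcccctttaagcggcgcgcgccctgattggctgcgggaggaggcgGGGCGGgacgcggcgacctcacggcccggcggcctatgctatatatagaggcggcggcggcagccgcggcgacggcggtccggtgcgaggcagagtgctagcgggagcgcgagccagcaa
SPRY4, chr5:142324198-142324497, minus strand: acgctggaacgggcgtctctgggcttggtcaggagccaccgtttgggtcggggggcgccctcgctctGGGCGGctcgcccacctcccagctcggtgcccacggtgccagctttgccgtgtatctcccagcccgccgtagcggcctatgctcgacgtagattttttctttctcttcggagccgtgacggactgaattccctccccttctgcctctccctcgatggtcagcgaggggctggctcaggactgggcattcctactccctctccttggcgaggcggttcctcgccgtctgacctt

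The first EGFR window held 3 GC boxes, and the ERRFI1 and SPRY4 windows held 1 each, a motif found in 45% of all 35116 windows. The second EGFR window held 2 AP-1 sites (4.95% of windows) and 1 androgen receptor half-site (14.8% of windows). The ERBB2 window held 1 half-site and 2 ETS cores, the latter found in 17.2% of windows. This window lies at the upstream end of the ERBB2 interval, and any start site further along the gene is not shown. No window of these genes held a CRE (1.85% of windows) or 2 half-sites facing each other 3 bases apart. These matches describe letters only and say nothing of binding.

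R1881 moved the receptors in different directions. EGFR, the receptor of EGF and TGFA (chromosome 7, 55019021 to 55211628, plus strand, GRCh38), stood at 52.5, 51.9 and 54.2 CPM in vehicle at 24 h and at 142, 118 and 140 CPM with R1881. All R1881 libraries were above all vehicle libraries. EGFR rose by 1.33 on the log2 scale, with an SE of 0.06 (edgeR FDR = 6.7e-20). After 72 h, EGFR was at 61.4, 57.3, 59.6 and 61.8 CPM in vehicle and at 128, 146, 147 and 145 CPM with R1881, again without overlap. The rise was 1.24 ± 0.05 on the log2 scale (edgeR FDR = 3.0e-22).

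ERBB2 (chromosome 17, 39687914 to 39730426, plus strand), the preferred partner of the other receptors, moved the opposite way. It stood at 372, 374 and 365 CPM in vehicle at 24 h and at 171, 189 and 176 CPM with R1881. ERBB2 fell by 1.05 ± 0.04 on the log2 scale (edgeR FDR = 1.9e-21), and the groups did not overlap. Its 72 h levels were 390, 362, 366 and 369 CPM in vehicle and 185, 181, 198 and 185 CPM with R1881. The log2 change was -0.99 ± 0.03 (edgeR FDR = 4.4e-27). Counts of ERBB2 had a fractional part in 10 of 28 libraries, those of ERBB3 in 13 and those of DUSP6 in 4, so some of their reads were shared with other places or genes, and none of the other members had one. The ERBB2 interval overlaps PGAP3 and MIEN1 on the other strand.

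ERBB3 (chromosome 12, 56076799 to 56103505, plus strand), a neuregulin receptor, was not called in any comparison. At 24 h its libraries lay at 262, 254 and 260 CPM in vehicle and at 263, 258 and 266 CPM with R1881. The difference was 0.02 ± 0.03 (log2, edgeR FDR = 0.57, 95% interval -0.04 to 0.09). In the 72 h experiment ERBB3 stood at 272, 267, 263 and 268 CPM in vehicle and at 276, 280, 282 and 281 CPM with R1881, a difference of 0.06 ± 0.03 (edgeR FDR = 0.039). Both differences turned to -0.06 and -0.04 when libraries were scaled by their totals only, so no direction is given.

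Per kb of merged exon length (GENCODE 29, whose release may differ from the one used for counting), ERBB2 was the most abundant of the 10 transcripts in vehicle, at 35.9 ± 0.5 CPM per kb at 24 h (SD, n = 3) and 36.0 ± 1.2 at 72 h (n = 4). ERBB3 followed at 28.6 ± 0.5 and 29.6 ± 0.4. With R1881, ERBB3 led at 24 h with 29.1 ± 0.5 CPM per kb, and ERBB2 and ERRFI1 came next with overlapping ranges. At 72 h with R1881, ERBB3 and ERRFI1 overlapped at 30.9 ± 0.3 and 30.7 ± 1.8 CPM per kb.

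The share of EGFR in the summed level per kb of the 3 receptors was 6.15 ± 0.15% in vehicle and 18.7 ± 1.7% with R1881 at 24 h (SD, n = 3). It was 6.81 ± 0.17% and 18.7 ± 0.9% at 72 h (n = 4). The share of ERBB2 was 52.2 ± 0.7% in vehicle and 30.4 ± 1.9% with R1881 at 24 h, and 51.1 ± 0.5% and 30.0 ± 0.8% at 72 h. With both agents the shares of EGFR and ERBB2 came close to each other, at 24.3 ± 1.5% and 26.2 ± 1.4% with Senexin B, and at 23.8 ± 1.5% and 23.3 ± 1.4% with SNX631. These shares are a description.

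**Figure D1:**
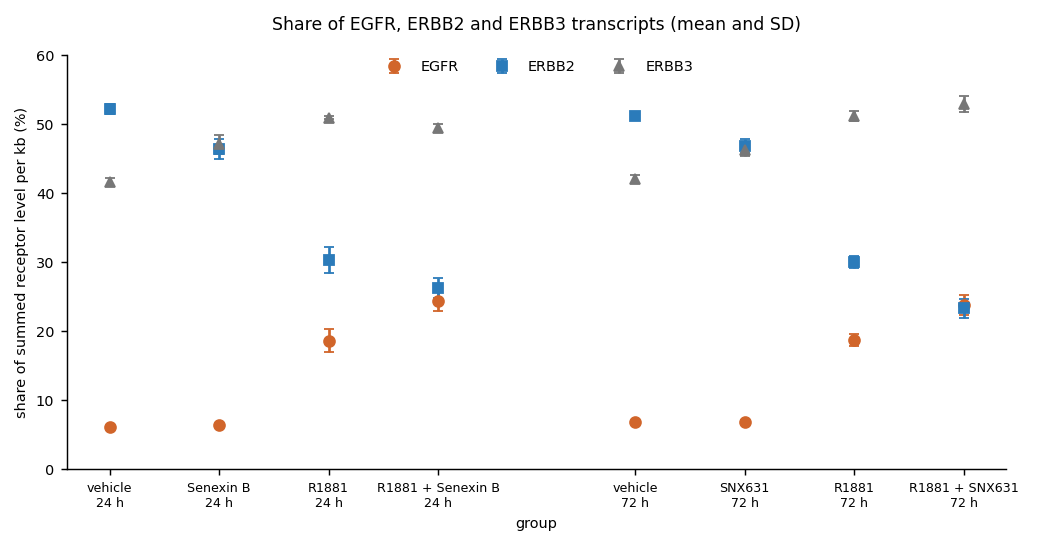
Share of EGFR, ERBB2 and ERBB3 in their summed level per kb of exon (vertical axis, %) in the 8 groups (horizontal axis); points are means and bars SD (n = 3 at 24 h, n = 4 at 72 h). EGFR was between 6.15% and 6.91% in the 4 groups without R1881, at 18.7% with R1881 alone in both experiments, and at 24.3% and 23.8% with R1881 and an inhibitor. ERBB2 was above ERBB3 in vehicle, close to it with an inhibitor alone (46.4% and 47.1% with Senexin B, 46.8% and 46.2% with SNX631) and below it in the 4 groups with R1881.

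ERRFI1 (chromosome 1, 8004404 to 8026308, minus strand), also known as MIG6, inhibits EGFR and ERBB2 kinases directly. It stood at 22.7, 21.7 and 22.2 CPM in vehicle at 24 h and at 68.1, 69.9 and 62.9 CPM with R1881. It rose by 1.59 ± 0.07 (log2, edgeR FDR = 1.8e-19). After 72 h, ERRFI1 stood at 23.9, 26.9, 25.7 and 24.4 CPM in vehicle and at 138, 121, 132 and 123 CPM with R1881, a rise of 2.34 ± 0.05 (edgeR FDR = 6.1e-33). The groups did not overlap in either experiment. Its level per kb relative to EGFR is given by the ratio of EGFR to ERRFI1 (mean ± SD over libraries). This ratio was 0.80 ± 0.02 in vehicle and 0.67 ± 0.09 with R1881 at 24 h (n = 3), and 0.80 ± 0.07 and 0.37 ± 0.04 at 72 h (n = 4).

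Of the ERK phosphatases, DUSP5 (chromosome 10, 110497838 to 110511544, plus strand), which acts on ERK in the nucleus, fell with R1881. It stood at 3.29, 2.68 and 2.30 CPM in vehicle at 24 h and at 0.83, 0.71 and 1.12 CPM with R1881, a log2 change of -1.54 ± 0.29 (edgeR FDR = 7.0e-06). After 72 h, DUSP5 stood at 5.83, 5.34, 5.75 and 6.16 CPM in vehicle and at 1.88, 1.33, 2.14 and 1.41 CPM with R1881, a change of -1.78 ± 0.19 (edgeR FDR = 1.4e-11). No R1881 library reached a vehicle library in either experiment.

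DUSP4 (chromosome 8, minus strand), another nuclear phosphatase, stood at 1.60, 2.54 and 1.79 CPM in vehicle and at 1.74, 2.38 and 2.25 CPM with R1881 at 24 h. These groups overlapped (log2 difference 0.13 ± 0.24, edgeR FDR = 0.66). At 72 h it stood at 3.74, 3.13, 3.69 and 4.29 CPM in vehicle and at 7.95, 9.86, 6.15 and 8.16 CPM with R1881, and it rose by 1.12 ± 0.14 (edgeR FDR = 5.4e-09). DUSP6 (chromosome 12, 89347232 to 89353271, minus strand), the cytoplasmic ERK phosphatase, was the least abundant of the 10 per kb, with 1 to 29 counts in a library. Its R1881 difference was -1.11 ± 0.48 at 24 h (edgeR FDR = 0.033) and -1.29 ± 0.47 at 72 h (edgeR FDR = 0.011), neither of them called. Under 5 of 22 alternative settings the 72 h difference was called.

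Among the Sprouty genes, SPRY4 (chromosome 5, 142310427 to 142326455, minus strand) had the largest R1881 effect of the 10 genes at 24 h. It stood at 6.67, 6.92 and 7.42 CPM in vehicle and at 0.92, 0.71 and 0.52 CPM with R1881, a log2 change of -3.31 ± 0.28 (edgeR FDR = 3.9e-15). After 72 h, SPRY4 stood at 3.39, 2.52, 4.12 and 3.43 CPM in vehicle and at 0.94, 0.33, 1.34 and 0.97 CPM with R1881, a change of -1.91 ± 0.33 (edgeR FDR = 6.3e-07). Every R1881 library was below every vehicle library. SPRY4-AS1 lies on the other strand, as EGFR-AS1 does for EGFR, AL034417.4 for ERRFI1 and AC024909.2 for DUSP6. The strand setting of the counting is not given in the sources used here.

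SPRY1 (chromosome 4, 123396795 to 123403760, plus strand) moved the other way. It stood at 4.79, 4.23 and 4.35 CPM in vehicle at 24 h and at 9.0, 10.3 and 8.56 CPM with R1881, and it rose by 1.07 ± 0.13 (edgeR FDR = 7.2e-09). At 72 h it stood at 3.57, 2.90, 3.43 and 3.98 CPM in vehicle and at 5.13, 4.56, 5.08 and 5.88 CPM with R1881. That difference of 0.57 ± 0.15 (edgeR FDR = 0.0012) was under the fold limit, and was called in 3 of 22 alternatives. SPRY2 (chromosome 13, 80335976 to 80340951, minus strand) lay between 0.96 and 2.37 CPM over all libraries and was called in no comparison, with R1881 differences of 0.11 ± 0.27 and 0.28 ± 0.24 (edgeR FDR = 0.75 and 0.33).

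In all, R1881 against vehicle called 6 of the 10 genes at 24 h, beside 19% of the 15948 genes tested. These were 3 higher (9.81% of genes tested) and 3 lower (9.19%). At 72 h it called 6 of 10, beside 19.8% of 16074 genes, 3 higher (9.7%) and 3 lower (10.1%). EGFR, ERBB2, ERRFI1, DUSP5 and SPRY4 were called the same way in both experiments. The median log2 difference over the 10 genes was 0.07 at 24 h and 0.17 at 72 h, beside -0.02 and -0.01 over all genes. The 10 genes were chosen with earlier results of these data known, so these counts and medians are a description.

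**Figure D2:**
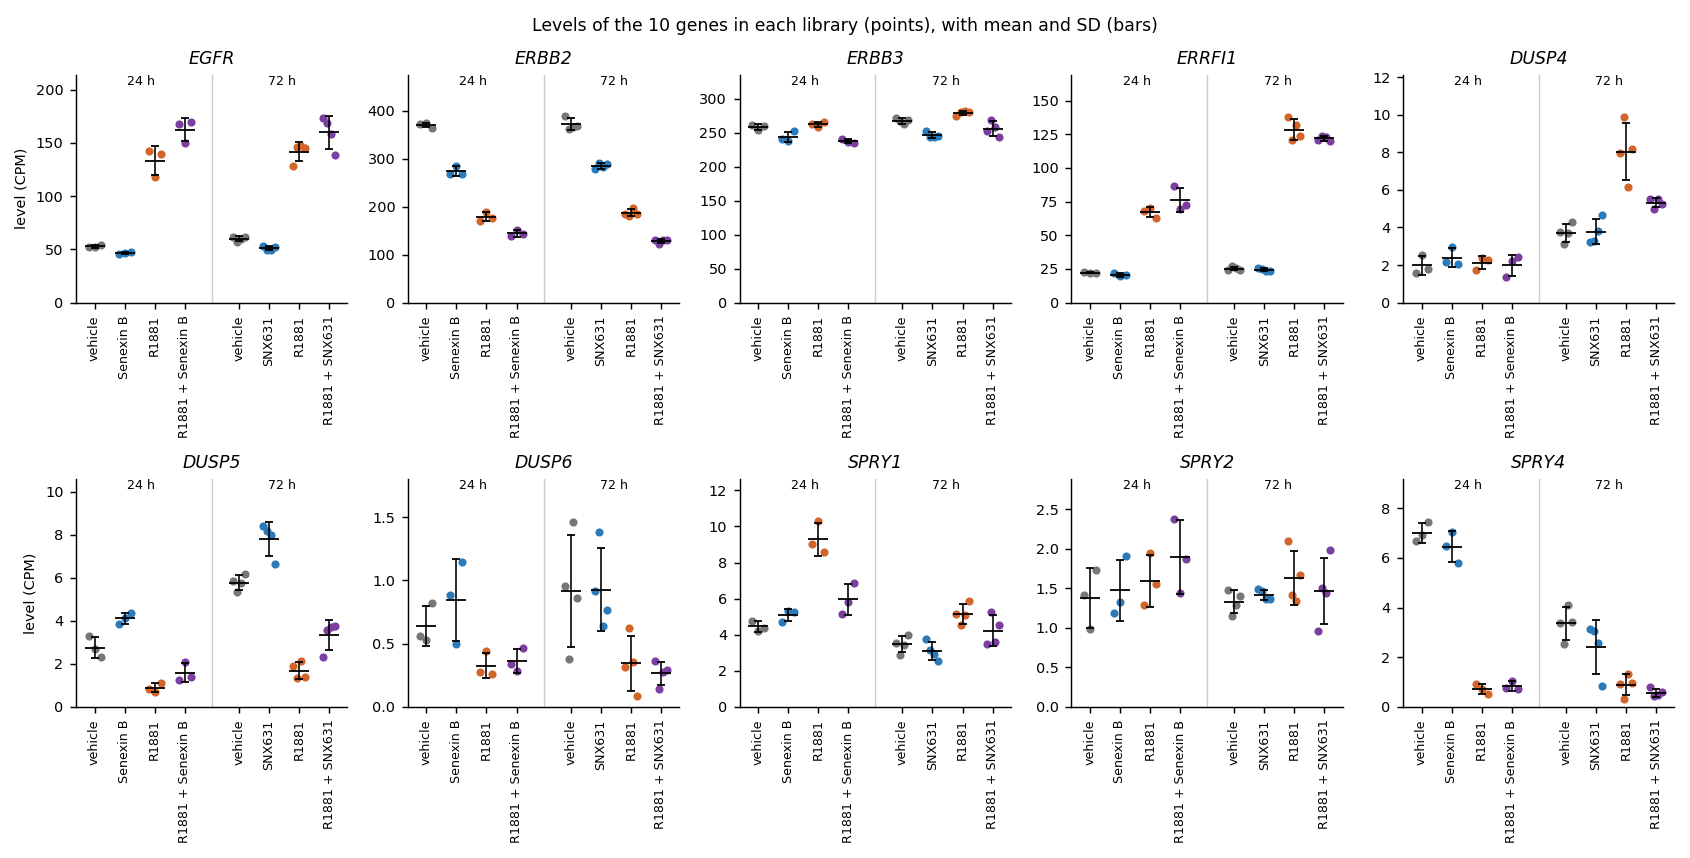
Level in CPM (vertical axes, linear, from 0) of each gene in each library (points) of the 8 groups (horizontal axes, 24 h left and 72 h right), with mean and SD as bars. EGFR and ERRFI1 were higher and ERBB2, DUSP5 and SPRY4 lower with R1881, while ERBB3 stayed between 236 and 282 CPM.

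The R1881 effect was also measured with the inhibitor in both arms. Under Senexin B, 5 of the 10 genes were called, beside 18.9% of genes tested, and under SNX631, 6 of 10, beside 22%. The 5 genes called in both experiments without inhibitor were called in the same direction here. EGFR rose by 1.81 ± 0.06 under Senexin B (edgeR FDR = 5.0e-23) and by 1.65 ± 0.05 under SNX631 (edgeR FDR = 2.2e-26). DUSP6 was called under SNX631, with a log2 change of -1.81 ± 0.50 (edgeR FDR = 0.00056), on 2 to 4.5 counts per library with both agents and 8 to 18 with SNX631 alone. No library with R1881 reached 10 DUSP6 counts, the filter's minimum count. The filter thus kept DUSP6 through the groups without R1881, where it was higher. SPRY1 under Senexin B had a difference of 0.23 ± 0.14 (edgeR FDR = 0.17).

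**Figure D3:**
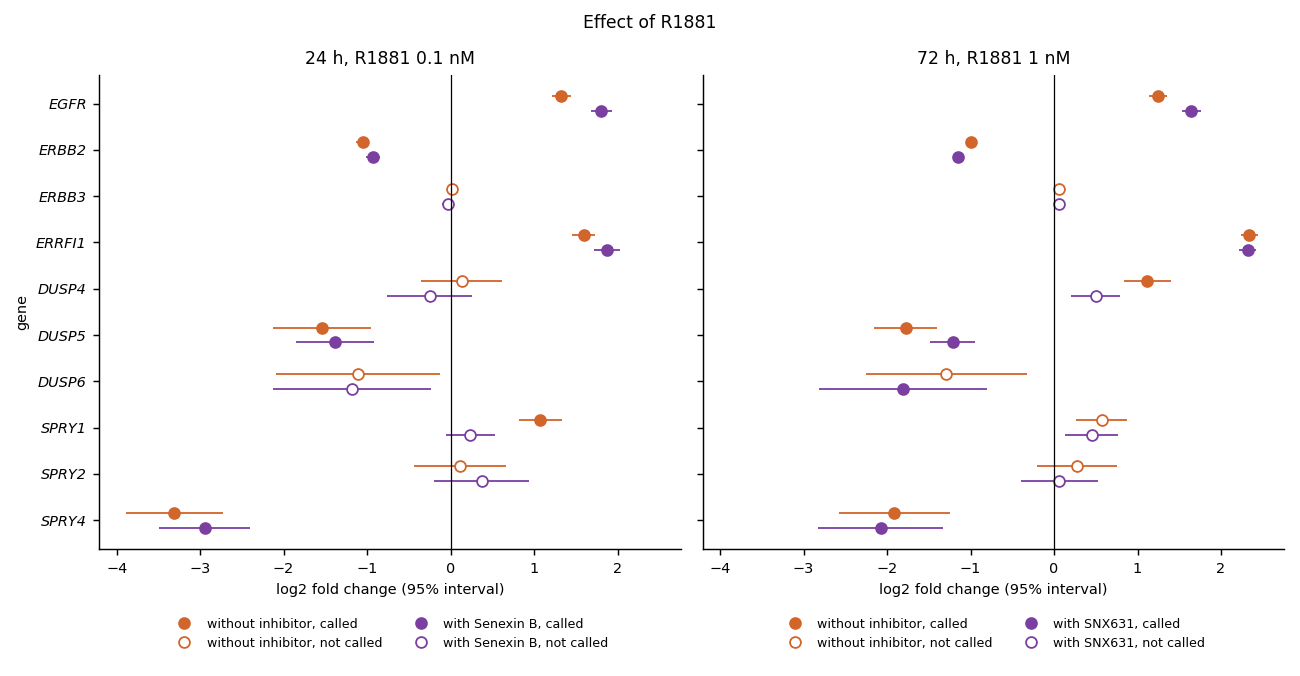
Log2 fold change for R1881 (horizontal axes, bars are 95% intervals) of the 10 genes (vertical axis) at 24 h and 72 h, without inhibitor (orange) and with it (purple); filled points were called. EGFR, ERRFI1, ERBB2, DUSP5 and SPRY4 are filled in all 4 comparisons, and ERBB3, with values from -0.03 to 0.06, is filled in none.

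The inhibitors alone moved few of these genes past both limits. Senexin B called 1 of 10 (3.79% of genes tested), and SNX631 called 0 of 10 (4.77%), with 5 of 10 under an unadjusted p of 0.05 in edgeR and 0 called by DESeq2. The share of all genes under that p was not counted, so the 5 of 10 is no result about these genes. At edgeR FDR under 0.01 and any fold, SNX631 alone had 4 of 10, beside 4321 of the 16074 genes tested. In cells with R1881, Senexin B called 1 of 10 (3.12%) and SNX631 called 2 of 10 (4.12%).

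ERBB2 was lower with the inhibitor in all 4 comparisons, under the FDR limit but not past the fold limit. With Senexin B alone it stood at 269, 285 and 268 CPM, all below vehicle (log2 difference -0.43 ± 0.04, edgeR FDR = 3.8e-11). With SNX631 alone it stood at 278, 292, 282 and 288 CPM (-0.38 ± 0.03, edgeR FDR = 5.7e-14). With both agents it stood at 138, 152 and 143 CPM with Senexin B and at 131, 123, 132 and 130 CPM with SNX631, all below R1881 alone. Those differences were -0.31 ± 0.04 (edgeR FDR = 7.2e-07) and -0.54 ± 0.03 (edgeR FDR = 1.9e-16).

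EGFR differed in sign with and without R1881. Senexin B alone gave 45.3, 47.0 and 47.3 CPM, all below vehicle (log2 difference -0.19 ± 0.06, edgeR FDR = 0.017), whereas with R1881 it gave 167, 150 and 170 CPM, all above R1881 alone (0.29 ± 0.05, edgeR FDR = 3.6e-05). SNX631 alone gave 53.0, 49.3, 49.8 and 52.1 CPM, all below vehicle (-0.23 ± 0.06, edgeR FDR = 0.0022). With R1881 it gave 173, 168, 159 and 139 CPM, which overlapped R1881 alone (0.17 ± 0.04, edgeR FDR = 0.0019). The interaction, the difference between the inhibitor's effect with and without R1881, was 0.48 ± 0.08 at 24 h (edgeR FDR = 0.00019) and 0.40 ± 0.08 at 72 h (edgeR FDR = 0.00018). Both were under the fold limit.

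DUSP5 was higher with each inhibitor. Senexin B alone gave 3.84, 4.15 and 4.34 CPM, above every vehicle library, and DUSP5 rose by 0.66 ± 0.18 (edgeR FDR = 0.0036). That call was lost without vehicle 24 h replicate 3 (0.48, edgeR FDR = 0.092), without Senexin B replicate 2 (0.66, edgeR FDR = 0.012) and without Senexin B replicate 3 (0.62, edgeR FDR = 0.020), and with DESeq2 (0.62, adjusted p = 0.051). SNX631 alone gave 8.39, 8.15, 8.0 and 6.64 CPM (0.43 ± 0.12, edgeR FDR = 0.0033), under the fold limit. With R1881, SNX631 gave 2.32, 3.57, 3.71 and 3.74 CPM, above all R1881 libraries, and DUSP5 rose by 1.00 ± 0.20 (edgeR FDR = 3.6e-05). With Senexin B and R1881 it stood at 1.27, 2.10 and 1.40 CPM (0.82 ± 0.32, edgeR FDR = 0.046), which was not called.

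DUSP4 fell in cells with R1881 when SNX631 was added, from 7.95, 9.86, 6.15 and 8.16 CPM to 5.51, 5.0, 5.50 and 5.28 CPM (log2 change -0.60 ± 0.12, edgeR FDR = 0.00013). The call was lost, under the fold limit, without R1881 72 h replicate 2 (-0.47) and without the combination's replicate 2 (-0.57), and with no filter on low counts (-0.58). SPRY1 fell when Senexin B was added to R1881, from 9.0, 10.3 and 8.56 CPM to 5.17, 5.83 and 6.87 CPM (-0.63 ± 0.13, edgeR FDR = 0.00027). That change was under the fold limit without R1881 24 h replicate 2 (-0.56) and without the combination's replicate 1 (-0.55).

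The interaction of R1881 and Senexin B called 1 of 10 genes, beside 0.577% of genes tested. This was SPRY1, at -0.84 ± 0.19 (edgeR FDR = 0.0061). The call was lost in 8 of 18 alternatives, which were DESeq2 and the fits without vehicle replicate 2 or 3, Senexin B replicate 2 or 3, R1881 replicate 2, or the combination's replicate 1 or 2, and in these the value lay between -0.85 and -0.76. The interaction of R1881 and SNX631 called 0 of 10 (1.19% of genes tested), with 4 of 10 under an unadjusted p of 0.05 in edgeR and 0 called by DESeq2. The share of all genes under that p was not counted, so the 4 of 10 is no result about these genes. At edgeR FDR under 0.01 and any fold there were 2 of 10, beside 1140 of the 16074 genes tested. The ERBB2 interaction with SNX631 was -0.16 ± 0.04 (edgeR FDR = 0.00996), and its FDR was over 0.01 in 18 of 22 alternatives. With Senexin B the ERBB2 interaction had the opposite sign, at 0.12 ± 0.06 (edgeR FDR = 0.24).

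**Figure D4:**
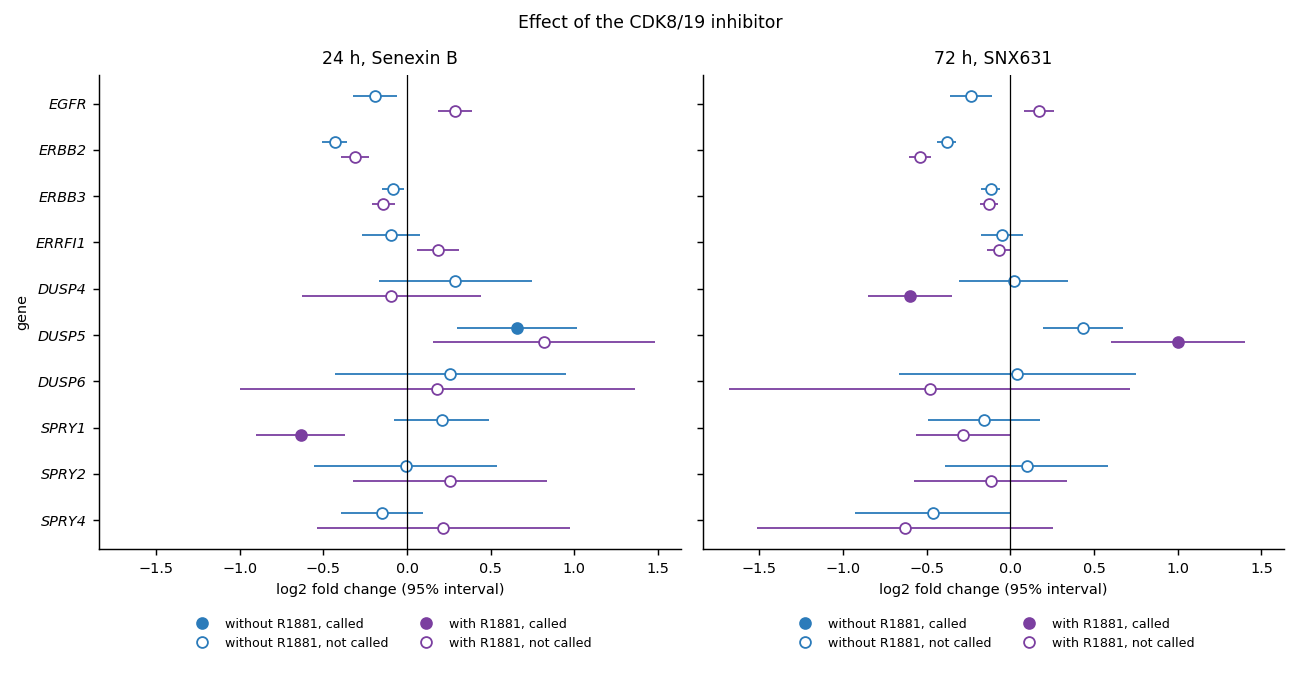
Log2 fold change for the inhibitor (horizontal axes, bars are 95% intervals) of the 10 genes (vertical axis), without R1881 (blue) and with it (purple); filled points were called. ERBB2 lies below 0 in all 4 comparisons, and EGFR lies below 0 without R1881 and above 0 with it.

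ERBB3 and ERRFI1 were called in none of the inhibitor comparisons. ERBB3 differences lay between -0.14 and -0.09 over the 4 inhibitor comparisons, 3 of them under the FDR limit, and ERRFI1 differences lay between -0.09 and 0.19, none under it. SPRY4, SPRY2 and DUSP6 were above the FDR limit in each inhibitor comparison. One SNX631 library (replicate 4) held SPRY4 at 0.85 CPM, beside 3.15, 3.07 and 2.56 CPM in the other libraries of that group.

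Other genes of the pathway were counted in lists. The lists were chosen with earlier results of these data known, so their counts and medians are a description. Of 14 ERBB ligands, the fourth receptor and sheddases, 7 were tested, and R1881 called 3 lower and 0 higher in each experiment, where 9.19% (24 h) and 10.1% (72 h) of all genes tested were called lower. NRG3, a neuregulin, changed by -2.78 ± 0.20 and -2.96 ± 0.22 (log2, 24 h and 72 h). The neuregulins NRG1 and NRG2 held at most 2 counts in a library, and which receptor NRG3 acts on was not tested. ERBB4, the fourth receptor, changed by -1.98 ± 0.28 and -2.86 ± 0.35, and TGFA, an EGFR ligand, by -0.91 ± 0.09 and -0.81 ± 0.08. The list's median was -0.56 at 24 h and -0.39 at 72 h, beside -0.02 and -0.01 over all genes.

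Of 16 genes of receptor turnover and restraint, all tested, R1881 called 2 higher and 1 lower at 24 h, and 3 higher and 1 lower at 72 h. These counts are near the share of all genes called (19% and 19.8%) and are no result about the list. LRIG1, which lowers ERBB receptor levels, rose by 1.14 ± 0.05 and 1.85 ± 0.05. PTPRJ, a receptor phosphatase, rose by 1.19 ± 0.08 and 0.94 ± 0.08, and LRIG3 changed by -0.66 ± 0.11 and -1.18 ± 0.09. Of 22 genes from RAS to ERK, 1 was higher and 2 lower of 22 tested at 24 h, and 2 were higher and 2 lower of 21 tested at 72 h, again no more than the share over all genes (19% and 19.8%). The adaptor GAB1 changed by -0.90 ± 0.09 and -0.74 ± 0.07, the adaptor GAB2 by -0.90 ± 0.25 and -0.87 ± 0.20, and RPS6KA3, the kinase RSK2, rose by 0.78 ± 0.07 and 1.15 ± 0.05.

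Of 18 other negative regulators tested, 3 were higher and 5 lower at 24 h, and 3 higher and 6 lower at 72 h, beside 19% and 19.8% of all genes called in either direction. DUSP2, a nuclear ERK phosphatase, rose by 1.31 ± 0.06 and 1.89 ± 0.06, PEA15, which holds ERK in the cytoplasm, by 1.23 ± 0.04 and 1.26 ± 0.03, and DUSP9 by 0.96 ± 0.21 and 0.86 ± 0.23. More of the list was lower, and 5 genes, named after their values were seen, were called lower in both experiments. Over all genes tested, 9.19% (24 h) and 10.1% (72 h) were called lower, and the share lower in both was not counted. How far each of these 5 acts on ERK was not tested. SPRED3, a relative of the Sprouty proteins, changed by -0.92 and -0.75, the phosphatase DUSP8 by -0.62 and -0.80, the phosphatase DUSP16 by -0.67 and -0.66, IL17RD by -0.76 and -0.86, and RASSF5 by -0.62 and -0.78. Of 20 ERK output genes, R1881 called 2 higher and 1 lower of 11 tested at 24 h, and 4 higher and 3 lower of 12 tested at 72 h, beside 19% and 19.8% of all genes. VGF rose by 2.00 ± 0.26 and 1.25 ± 0.26 and PHLDA1 by 1.01 ± 0.14 and 1.14 ± 0.10, and EPHA2 changed by -1.34 ± 0.22 and -1.04 ± 0.19. All these named genes had edgeR FDR under 0.01 in both experiments, which follows from how they were named, and groups that did not overlap. As the genes were picked by their values, neither adds support. No listed gene was called the same way in 3 or more of the 4 inhibitor comparisons, in each of which a list held 0 to 3 calls.

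The gene whose log2 CPM, centred within each experiment, followed a member most closely over the 28 libraries was named by the highest Pearson r, for 8 of the 10 members. It was TSPYL4 for EGFR (r = 0.992), MYOZ1 for DUSP5 (0.970) and FKBP9 for SPRY4 (0.952). For ERBB3 it was HID1 (0.916), for SPRY1 PGBD4P8 (0.871), for DUSP6 SYF2 (0.854), for DUSP4 ARHGAP1 (0.761) and for SPRY2 PRR7 (0.622). These values describe libraries that share treatments.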

How the data were processed

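Total RNA of 28 LNCaP libraries was sequenced after preparation with a directional kit. One table of expected counts was deposited, not scaled to depth, with reads that fit several places shared out as fractions (16.9% of values above 0). The submitters' processing notes name FastQC, cutadapt 2.8, STAR 2.7.2b, featureCounts and Subread 2.0.3, and the build GRCh38.p13. The annotation release and strand setting are not given in the sources used here. Values were rounded, and 2 rows that are not human genes (0 counts) were left out.

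The 24 h and 72 h experiments were fitted separately, all 4 groups together, by edgeR 4.0.16 under R 4.3.3 (TMM scaling, quasi-likelihood test, Benjamini-Hochberg adjustment over all genes tested). Genes were kept by filterByExpr (minimum count 10, minimum total 15), leaving 15948 at 24 h and 16074 at 72 h. CPM are counts scaled by the TMM library size. The limits FDR under 0.01 and fold over 1.5 follow the study. The genes and lists were chosen with earlier results of these data known. Genes named from a list are up to 3 with the largest mean R1881 effect among genes called in 1 direction in each experiment, and up to 2 by inhibitor effect called the same way in 3 of 4 comparisons.

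Alternatives were DESeq2 1.42.0, RLE size factors, library totals only, no filter, 1 fit of all 28 libraries, a replicate block, and leaving out each library. The code was tested on simulated data. The labels call the samples biological replicates. Depth limits DUSP6 most, and counting error is larger for genes with few counts. Figures were drawn with matplotlib 3.10.9. The most similar gene of 2 members is not reported here.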

Additional observations from a re-analysis of the deposited data

Results flagged for a closer look

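Of 40 groups of 4 libraries tested for a library far from the others, 3 had one, where chance gives about 1 in 20. EGFR stood at 128 CPM in R1881 72 h replicate 1, the lowest of its group. ERBB3 stood at 253 CPM in SNX631 72 h replicate 1, the highest of its group. DUSP5 stood at 2.32 CPM in the R1881 and SNX631 group, replicate 1, the lowest of its group.

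By edgeR's test of the interaction, the inhibitor's effect with and without R1881 differed at FDR under 0.01 and any fold for 3 genes. For 1 of them, EGFR, it did so under every alternative run. With Senexin B at 24 h these were 2, EGFR and SPRY1, beside 334 of all 15948 genes tested. With SNX631 at 72 h they were 2, EGFR and ERBB2, beside 1140 of all 16074 genes tested. The genes were chosen with earlier results of these data known, so these counts are a description. For EGFR the interaction was 0.48 (log2, FDR = 0.00019) with Senexin B at 24 h and 0.40 (FDR = 0.00018) with SNX631 at 72 h. For SPRY1 it was -0.84 with Senexin B (FDR = 0.0061), a call lost in 8 of 18 alternatives. For ERBB2 it was -0.16 with SNX631 (FDR = 0.00996), and the FDR was over 0.01 in 18 of 22 alternatives. With Senexin B the ERBB2 value had the opposite sign, at 0.12 (edgeR FDR = 0.24).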

How the results depend on the processing

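The R1881 calls of EGFR, ERBB2, ERRFI1, DUSP5 and SPRY4, with and without inhibitor, were kept under every alternative run, and the EGFR interactions stayed under the FDR limit, between 0.38 and 0.53 at 24 h and between 0.37 and 0.47 at 72 h. With DESeq2, 0 genes were called for Senexin B against vehicle and 0 for the interaction at 24 h. Without the filter, 1 gene was called for SNX631 with R1881 against R1881 alone. The cause was not tested. When each library was left out, the number called ranged from 0 to 1 for Senexin B against vehicle, for Senexin B with R1881 and for both interactions, from 1 to 2 for SNX631 with R1881, from 5 to 6 for R1881 under Senexin B, from 6 to 7 for R1881 under SNX631 and from 6 to 8 for R1881 against vehicle at 72 h. It stayed at 6 for R1881 against vehicle at 24 h and at 0 for SNX631 alone.

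Of 100 values of single genes, the sign turned in 5 with library totals only: ERBB3 for R1881 against vehicle at 24 h (-0.055) and 72 h (-0.040) and under SNX631 (-0.052), SPRY2 for R1881 under SNX631 (-0.045), and DUSP4 for SNX631 alone (-0.0080). SPRY2 for Senexin B alone turned with the replicate block (0.047) and DESeq2 (0.049). The ERBB3 interaction at 72 h turned without the filter (0.0048) and with all 28 libraries (0.0014). All of these were uncalled.

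Leaving out 1 library turned the sign in 32 of 1400 values, all uncalled. At 24 h the ranges were -0.045 to 0.45 for SPRY2 with R1881, -0.24 to 0.33 for SPRY2 and -0.0095 to 0.58 for DUSP6 with Senexin B, -0.28 to 0.11 for DUSP4 and -0.049 to 0.45 for DUSP6 with Senexin B in R1881, and, for the interaction, -0.40 to 0.18 for DUSP6, -0.072 to 0.48 for SPRY2 and -0.066 to 0.36 for DUSP5. At 72 h they were -0.11 to 0.21 for SPRY2 with R1881 under SNX631, -0.0995 to 0.10 for DUSP4 and -0.24 to 0.35 for DUSP6 with SNX631, -0.29 to 0.025 for SPRY2 and -0.81 to 0.042 for DUSP6 with SNX631 in R1881, and, for the interaction, -0.051 to 0.015 for ERRFI1, -0.029 to 0.020 for ERBB3, -0.85 to 0.0022 for DUSP6 and -0.46 to 0.11 for SPRY4.

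Of same-numbered pairs, 0 of 18 at 24 h and 0 of 24 at 72 h correlated above 0.1. No other pair did either, so this limit cannot settle whether replicate numbers pair the samples. The highest same-numbered values were 0.067 and 0.073, beside 0.047 and 0.088 for other pairs. Best matched to their own number were 7 of 12 and 2 of 16 libraries. With the replicate block the numbers called stayed at 6, 5, 1, 1 and 1 at 24 h and 6, 6, 0, 2 and 0 at 72 h. Depth limits DUSP6, SPRY2 and, with R1881, SPRY4 and DUSP5, which had few counts.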
